A study of Homo sapiens with 4 samples.

Results

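Prostaglandins are short-lived lipid signals made from arachidonic acid, and 10 genes of their synthesis, sensing and inactivation are described here in MDA-MB-231, a human triple-negative breast cancer cell line. The genes were taken by symbol, namely PTGS1, PTGS2, PTGES, PTGES2, PTGES3, PTGER2, PTGER4, HPGD, PLA2G4A and PTGIS. They are 10 of the 18417 genes named by the arrays' annotation, and each of the 10 had 1 probe set. Total RNA of untreated cells was hybridised to 4 Affymetrix arrays. Both arrays of the shNS group came from cells with a non-specific short hairpin RNA, and both arrays of the shDBC1 group came from cells with a hairpin against DBC1, the protein now named CCAR2. The labels number the replicates 1 and 2 in each group, call them biological and independent, and do not say what a number shares or whether the cells were clones or pools. All cells were grown in the same serum-supplemented medium, per the labels. The study compared the groups to describe gene expression after CCAR2 depletion.

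In this pathway a phospholipase frees arachidonic acid from membranes, a cyclooxygenase turns it into prostaglandin H2, and terminal synthases convert that into prostaglandin E2, prostacyclin or other prostanoids. Prostaglandin E2 acts on 4 receptors of the EP family, of which EP2 and EP4 raise cyclic AMP, and it is inactivated by the dehydrogenase encoded by HPGD. The inducible cyclooxygenase, PTGS2, is known in MDA-MB-231 derivatives as one of the genes linked to lung metastasis, and PEA3 factors, DNA-binding partners reported for DBC1, are known to act on its promoter.

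Values are log2 intensities that the authors normalised with RMA, so a difference of 1 is a 2-fold difference, and intensities of different genes are not compared because each probe set has its own brightness. Array medians lay between 7.32 and 7.40, and correlations between arrays across all probe sets, which are not independent replicates, lay between 0.991 and 0.995. CCAR2, the target, was lower on both shDBC1 arrays (8.76 and 8.16) than on the shNS arrays (9.62 and 9.41). Genes whose mean lay below a log2 value of 6.58, the 25th percentile of all genes, were not tested, and 13813 genes were. Among them limma, with Benjamini-Hochberg adjustment, called 0 genes (0%) at an adjusted p under 0.05, while 475 (3.44%) had an unadjusted p under 0.05. Of the 10 prostaglandin genes 7 were tested and HPGD, PLA2G4A and PTGIS were too dim. None of the 7 was called, and 0 of the 7 had an unadjusted p under 0.05. All 6 fixed features of this cell line (VIM, CD44, ZEB1, AXL, CAV1 and PLAU) lay above the filter level, and the hormone receptor genes ESR1 and PGR lay below it. These were 2 of 10 luminal epithelial markers, and the other 8, ERBB2 (mean 9.35) among them, lay above it.

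The largest mean differences between the lines within the set were those of PTGES, lower in shDBC1 cells, and PTGS1, higher in them. Limma by group called neither gene, and the groups overlapped for PTGS1. Within same-numbered arrays, shDBC1 was below shNS in both pairs for 3 of the 7 tested genes (PTGS2, PTGES and PTGER4) and above it in both pairs for 2 (PTGS1 and PTGES2). Over all genes tested these shares were 27.6% and 26.0%, so neither count can be read as particular to the set. The shDBC1 arrays both lay below the shNS arrays for 1 tested gene, PTGES, and both above for 0, against 13.2% and 11.6% of all genes tested. The median difference of the 7 was -0.06, with 4 below zero, beside a median of 0.01 and 6594 of 13813 below zero over all genes. The array numbers were separated as well. PTGS1, PTGS2 and PTGER2 were higher on both arrays numbered 2 than on both numbered 1, by means of 1.09, 1.28 and 0.74, and PTGES2 and PTGER4 were lower, by smaller amounts (-0.20 and -0.28).

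**Figure D1:**
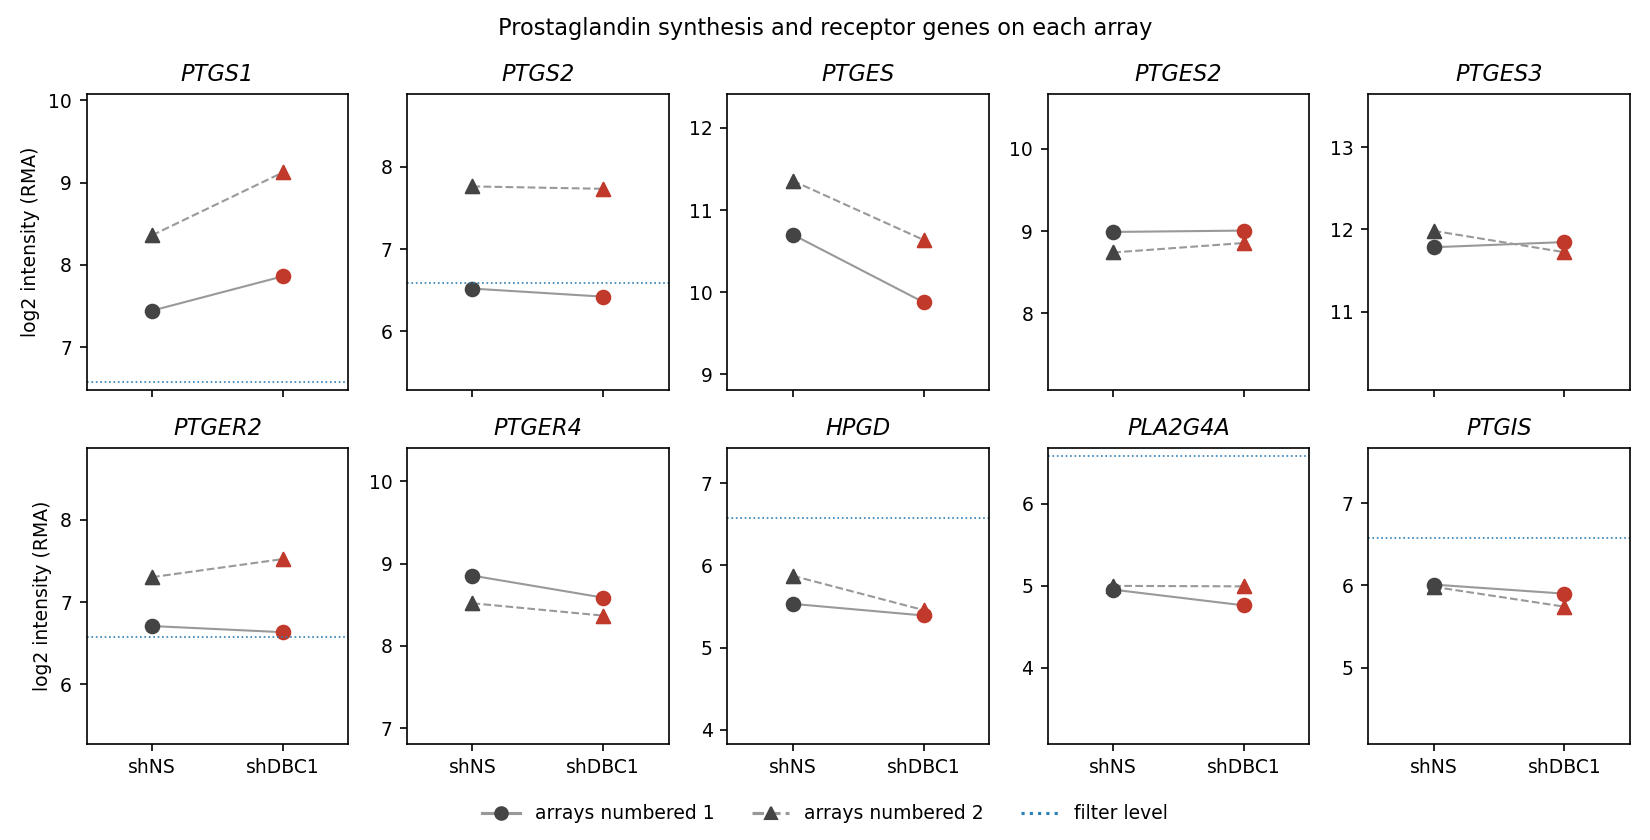
Log2 intensity (vertical axis) of the 10 genes in shNS (dark) and shDBC1 (red), with arrays numbered 1 as circles on a solid line and arrays numbered 2 as triangles on a dashed line; the dotted line is the filter level of 6.58, and every panel spans the same number of log2 units. For PTGES both lines slope down by a similar amount, for PTGS1 both slope up, and for PTGS2 they are flat and far apart.

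The first step was represented by PLA2G4A, which encodes cytosolic phospholipase A2, the enzyme that releases arachidonic acid when calcium rises. It read 4.95 and 5.0 in shNS and 4.76 and 4.99 in shDBC1. The 4 readings overlapped between the groups and all lay below the filter level, so a difference of this gene was not detectable here. With no filter its difference was -0.10 (SE 0.12). PLA2G4A is the protein-coding gene next to PTGS2 on chromosome 1 in the RefSeq table. Its readings numbered 2 were also the higher ones, by 0.05 in shNS and 0.23 in shDBC1, at a level too dim to compare with PTGS2.

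Of the cyclooxygenases, PTGS1 encodes the form found in many tissues at rest. It read 7.44 and 8.36 in shNS and 7.86 and 9.12 in shDBC1, in the order of the array numbers. The groups overlapped, because the second shNS array was above the first shDBC1 array. Within same-numbered arrays shDBC1 was higher by 0.42 (1.34-fold) in the first pair and by 0.76 (1.70-fold) in the second. Over both pairs the difference was 0.59 (SE 0.52, interval -0.79 to 1.98), with group means of 7.90 ± 0.65 and 8.49 ± 0.89 (SD, n = 2), and limma gave an adjusted p of 1. By size it ranked 236 of 13813. Without the second shDBC1 array the difference was -0.04, and without the first it was 1.22. It was 0.13 when the first shNS array was dropped and 1.05 when the second was. Each such step leaves the array numbers unbalanced. The arrays numbered 2 were above those numbered 1 by 0.92 in shNS and by 1.26 in shDBC1.

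PTGS2, the cyclooxygenase that cytokines and growth factors induce, hardly differed between the lines. It read 6.52 and 7.76 in shNS and 6.42 and 7.73 in shDBC1, so each shDBC1 reading lay close to the shNS reading of the same number. The within-number differences were -0.10 and -0.03, and the fitted difference was -0.06 (SE 0.60, interval -1.66 to 1.53; limma adjusted p 1). That interval is wide because the fit by group alone counts the distance between array numbers as error. Leaving out the second shNS array gave 0.56 and leaving out the first shDBC1 array gave 0.59, against -0.68 without the first shNS and -0.72 without the second shDBC1 array. The distance between numbers was 1.24 in shNS (2.37-fold) and 1.31 in shDBC1 (2.48-fold), and its mean ranked 34 of 13813 by size. The readings numbered 1 lay below the filter level of 6.58, so these folds of a dim gene may be understated by RMA.

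PTGS1 and PTGS2 were both at least 2-fold higher on the arrays numbered 2, averaged over the lines (2.13-fold and 2.42-fold), a limit that 0.738% of all genes tested passed in that direction. This limit was chosen after the values were seen. Over the 7 tested genes, both arrays numbered 2 lay above both numbered 1 for 3 genes and below for 2, against 25.8% and 27.3% of all genes. Markers of other cell types were measured beside this difference. The mean of the 10 luminal epithelial markers, 8 of them above the filter level, was 8.93 and 9.12 in shNS and 8.78 and 9.02 in shDBC1, higher on the arrays numbered 2 in both lines. Most of this came from CDH1 and EPCAM, higher by 1.19 and 0.83 averaged over the lines. FOXA1 and GATA3 went the other way, at -0.39 and -0.11. The mean of the 5 leukocyte markers on the arrays, 2 of them above the filter level, was 7.40 and 7.90 in shNS and 7.43 and 7.65 in shDBC1, and most of this came from CD14, at 8.44 and 9.59 in shNS and 8.56 and 9.46 in shDBC1, and from LYZ on the second shNS array (7.49, against 6.11 to 6.23 on the others). The pan-leukocyte gene PTPRC lay between 4.39 and 4.54, below the filter level, its readings numbered 2 being slightly the higher ones. The part of these genes in the difference of PTGS2 was not tested. Means ranged from 6.44 to 6.65 for 5 endothelial markers (3 above the filter level), from 6.19 to 6.67 for 5 fibroblast markers (2 above) and from 6.12 to 6.28 for 4 platelet markers (1 above). These means hide single readings. PECAM1 read 8.23 on the second shNS array, against 6.65 to 6.85 on the others. LUM, whose mean lay below the filter level, read 7.01 on the second shDBC1 array, against 5.02 to 5.92.

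**Figure D2:**
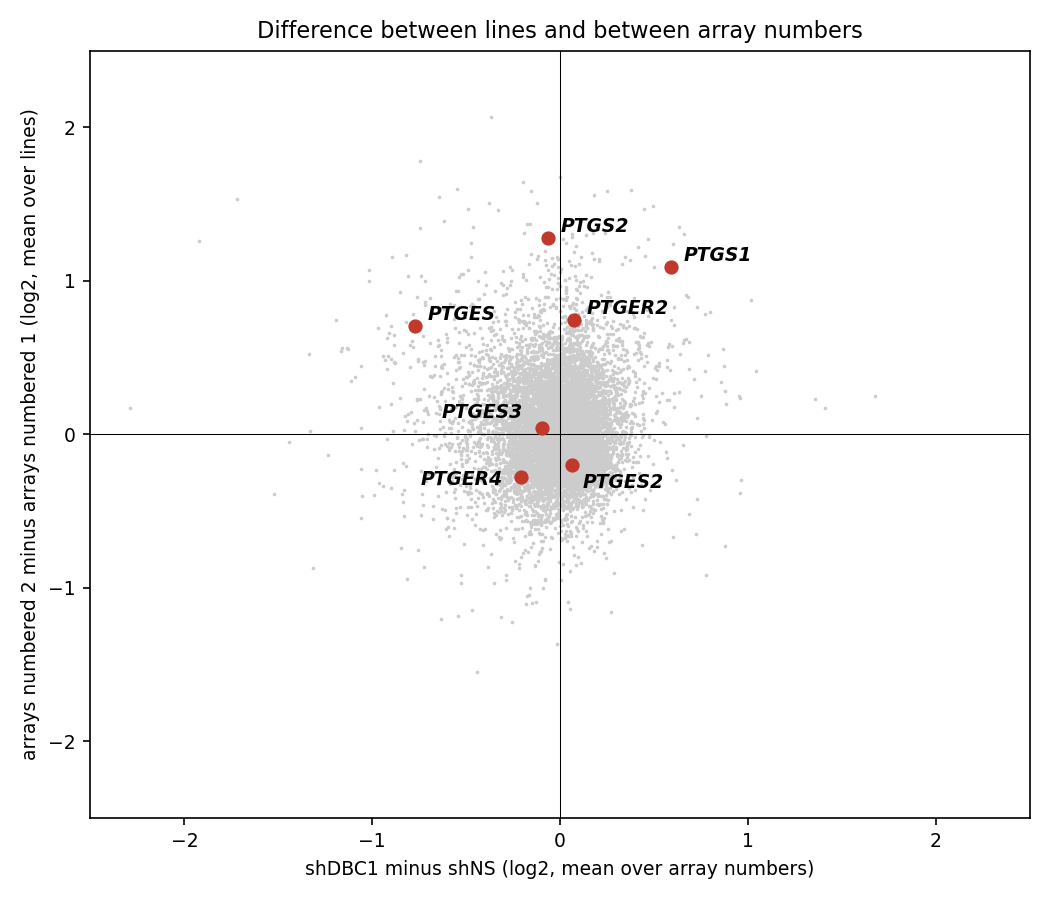
Difference between lines (horizontal axis, shDBC1 minus shNS) against difference between array numbers (vertical axis, number 2 minus number 1), both in log2 and each a mean of 2 values, for the 13813 genes tested (grey) and the 7 tested prostaglandin genes (red). PTGS2 lies on the vertical axis at 1.28, PTGS1 at 0.59 and 1.09, and PTGES at -0.77 and 0.71, while PTGES2, PTGES3 and PTGER4 lie within the bulk of genes.

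The genes whose pattern over the 4 arrays was closest to that of PTGS2, by Euclidean distance of mean-centred log2 values among the genes tested, were SMIM14 (distance 0.08), the E-cadherin gene CDH1 (0.09), the repressor gene HBP1 (0.11), the interferon-induced IFITM1 (0.13) and the ganglioside synthase gene ST3GAL5 (0.13). Their means were higher on the arrays numbered 2 by 1.19 to 1.30, and CDH1, for example, read 6.93 and 8.06 in shNS and 6.79 and 8.04 in shDBC1. A likeness over 4 arrays is a description and was not tested. PTGER2 was the prostaglandin gene nearest to PTGS2 (distance 0.56), with 200 tested genes nearer, followed by PTGS1 (0.69).

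The windows before the starts of PTGS2, PTGS1 and PTGES are shown because these genes carry the largest differences in the set, between array numbers for PTGS2, between lines for PTGES, and in both ways for PTGS1. They are the 250 bases before the RefSeq start on GRCh38.p14, chr1:186680424-186680673 for PTGS2 (minus strand), chr9:122370283-122370532 for the outermost of 2 starts of PTGS1 (plus strand) and chr9:129753043-129753292 for PTGES (minus strand). Capitals mark matches, on either strand, to the C/EBP motif TTNNGCAA, the half-site TGACG of a cyclic AMP response element, the NF-kB motif GGGNNTNCC, the TATA box TATAAA, the GC box GGGCGG and the PEA3 motif AGGAAG.
PTGS2: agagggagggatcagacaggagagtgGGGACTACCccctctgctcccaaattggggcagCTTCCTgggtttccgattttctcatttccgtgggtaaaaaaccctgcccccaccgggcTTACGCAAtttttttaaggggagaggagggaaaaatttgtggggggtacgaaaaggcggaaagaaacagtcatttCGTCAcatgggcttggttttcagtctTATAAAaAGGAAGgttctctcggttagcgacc
PTGS1: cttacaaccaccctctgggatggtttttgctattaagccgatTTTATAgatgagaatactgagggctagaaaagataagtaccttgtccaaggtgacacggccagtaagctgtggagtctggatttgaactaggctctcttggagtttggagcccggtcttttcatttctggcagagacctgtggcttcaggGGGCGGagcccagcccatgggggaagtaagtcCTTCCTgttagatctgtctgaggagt
PTGES: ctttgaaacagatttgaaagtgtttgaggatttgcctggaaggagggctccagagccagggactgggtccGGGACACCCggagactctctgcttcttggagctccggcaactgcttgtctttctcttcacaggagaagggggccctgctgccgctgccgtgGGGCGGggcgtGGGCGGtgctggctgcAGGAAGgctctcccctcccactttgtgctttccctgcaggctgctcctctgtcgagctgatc

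In the PTGS2 window the C/EBP letters TTACGCAA lay 133 to 126 bases before the start, the reverse of the cyclic AMP half-site 58 to 54 and the TATA box 32 to 27. The PEA3 letters occurred 2 times there, 191 to 186 bases before the start on the other strand and 25 to 20. The latter were separated by 1 base from the TATA box. NF-kB letters lay 224 to 216 bases before the start, and there was no GC box. The PTGES window held 2 GC boxes, 89 to 84 and 78 to 73 bases before the start, 1 PEA3 match, 62 to 57, and 1 NF-kB match on the other strand, 180 to 172. The PTGS1 window held a GC box (58 to 53) and a PEA3 match on the other strand (26 to 21). It also held a TATA box match on the other strand, far from the start (208 to 203). Of 35114 windows of this length in the RefSeq table, 9.05% held the C/EBP motif, 21.2% the half-site, 18.2% the NF-kB motif, 10.7% the TATA box, 42.6% the GC box and 28.7% the PEA3 motif. These matches are descriptions of letters and no binding was measured. Windows were found for 9 of the 10 genes, PTGIS being the one without an entry. Among the genes whose windows are not shown, PEA3 letters occurred before PTGES2 (149 to 144, outermost start) and PTGES3 (142 to 137). They did not occur before PTGER2, PTGER4, HPGD or PLA2G4A. NF-kB letters occurred before PTGES3, PTGER2 and PTGER4, and not before PTGES2, HPGD or PLA2G4A. The motifs were therefore not particular to the genes with the largest differences.

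Of the terminal synthases, PTGES encodes microsomal prostaglandin E synthase, an inducible enzyme that commonly works with PTGS2. It had the largest difference between the lines among the 7 genes. It read 10.70 and 11.36 in shNS and 9.88 and 10.64 in shDBC1. Both shDBC1 readings lay below both shNS readings, the second shDBC1 array only narrowly below the first shNS array. Within same-numbered arrays the differences were -0.82 (1.77-fold lower) and -0.72 (1.65-fold lower), so the pairs differed from each other by 0.10. The group means were 11.03 ± 0.46 and 10.26 ± 0.54 (SD, n = 2), which is 1.71-fold lower. The log2 difference was -0.77, with an SE of 0.35 and an interval from -1.68 to 0.14. In limma by group alone it did not pass (unadjusted p 0.0809, adjusted p 1). Its rank by size was 98 of 13813, and 0.637% of all genes tested were at least 1.5-fold lower in both pairs, as PTGES was, a limit set after its values were seen. The difference was between -1.15 and -0.39 with any 1 array left out, at -1.15 without the second and -0.39 without the first shDBC1 array, and at -1.10 and -0.44 when the first or the second shNS array was dropped. PTGES was also higher on the arrays numbered 2, by 0.65 in shNS and by 0.76 in shDBC1, although the readings of the array numbers overlapped.

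The other enzymes named prostaglandin E synthases differed little. PTGES2, a membrane-associated form, read 8.99 and 8.74 in shNS and 9.01 and 8.86 in shDBC1, a difference of 0.07 (SE 0.14, interval -0.30 to 0.44). It was lower on both arrays numbered 2, by 0.25 in shNS and 0.15 in shDBC1, and its group difference turned to -0.06 when the second shNS array was dropped and to -0.01 when the first shDBC1 array was. PTGES3, the cytosolic form, is better known as the HSP90 co-chaperone p23. It read 11.78 and 11.98 in shNS and 11.85 and 11.72 in shDBC1, a difference of -0.10 (SE 0.13, interval -0.44 to 0.24) whose within-number values, 0.06 and -0.26, pointed opposite ways, and it was 0.0010 without the second shNS array. The intervals of both genes exclude a difference as large as that measured for PTGES, while the difference between the genes was not tested. PTGIS, the prostacyclin synthase gene, read 6.01 and 5.98 in shNS and 5.90 and 5.74 in shDBC1. Both its shDBC1 readings were the lower ones, all 4 lay below the filter level, and with no filter the difference was -0.18 (SE 0.10).

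The receptor genes went opposite ways with the array number. Their fitted differences between the lines were small, with a wide interval for PTGER2. PTGER2, which encodes EP2, read 6.71 and 7.30 in shNS and 6.63 and 7.52 in shDBC1. Both readings numbered 2 were the higher ones, by 0.59 and 0.89, and the difference between lines was 0.07 (SE 0.37, interval -0.90 to 1.04), with -0.07 in the first pair and 0.22 in the second. Without the first shNS array it was -0.22 and without the second shDBC1 array -0.37. PTGER4, which encodes EP4, read 8.85 and 8.52 in shNS and 8.59 and 8.37 in shDBC1. Here both readings numbered 2 were the lower ones, by 0.34 and 0.22, and shDBC1 was lower within both pairs, by -0.27 and -0.15. The difference between lines was -0.21 (SE 0.17, interval -0.65 to 0.23; limma adjusted p 1), and it was -0.04 and -0.38 when the first or the second shNS array was dropped, and -0.32 and -0.10 when the first or the second shDBC1 array was.

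HPGD, which encodes the dehydrogenase that inactivates prostaglandin E2, read 5.53 and 5.87 in shNS and 5.39 and 5.46 in shDBC1. Both shDBC1 readings were the lower ones, but all 4 lay below the filter level. With no filter the difference was -0.28 (SE 0.15), and limma gave an adjusted p of 1. With these dim genes included, shDBC1 was lower within both pairs for 6 of the 10 genes and higher within both for 2, beside 25.6% and 24.9% of all 18417 genes with no filter.

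Genes around the 10 were followed in 7 lists of the pathway, and 0 of their genes were called by limma. Among prostaglandin transporters and breakdown enzymes 6 of 7 tested genes were below zero, with a median of -0.23, beside 47.7% of all genes below zero. The organic anion transporter genes SLCO3A1 and SLCO4A1 differed by -0.53 (SE 0.13) and -0.42 (SE 0.18), and ABCC4, an exporter of prostaglandin E2, by -0.23 (SE 0.10). SLCO3A1 had an unadjusted p of 0.0112 and an adjusted p of 1 in limma. SLCO4A1 was -0.23 when the second shNS array was dropped and -0.62 when the first was. For these 3 genes both shDBC1 arrays lay below both shNS arrays, as for 13.2% of all genes tested. The 3 were named for the smallest p of their list in the same comparison, which favours such a separation. Among the other synthases and reductases 2 of 5 were below zero (median 1.35e-05), with AKR1C3, a prostaglandin F synthase with close sequence copies, at -0.49 (SE 0.53), PRXL2B at -0.09 and the thromboxane synthase gene TBXAS1 at 0.05. AKR1C3 was 0.21 without the first shDBC1 array, and TBXAS1 was -0.04 without the first shNS array and -0.0017 without the second shDBC1 array. Of the other prostanoid receptors 1 of 4 was below zero (median 0.03), with TBXA2R at 0.04, PTGER1 at 0.04 and PTGIR at 0.02, and each of these was below zero without the second shNS array, at -0.01, -0.22 and -0.07. PTGIR was also below zero, at -0.02, without the second shDBC1 array.

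In the list for release and re-esterification of arachidonate 8 of 13 genes were below zero (median -0.05), with the diacylglycerol lipase genes DAGLB at 0.38 (SE 0.11) and DAGLA at -0.14 (SE 0.11), and the phospholipase activator gene PLAA at 0.18 (SE 0.13). Of the lipoxygenase and leukotriene genes 3 of 6 were below zero (median -0.04), with ALOX5AP, which presents arachidonate to 5-lipoxygenase, at -0.39 (SE 0.23), ALOX12B at 0.16 and ALOX15B at -0.08. ALOX5AP was -0.09 when the second shNS array was dropped and -0.69 when the first was. Among 16 regulators of PTGS2 transcription and mRNA 10 were below zero (median -0.06). The RNA-binding protein genes CELF2 and ZFP36L2 differed by -0.48 (SE 0.11) and -0.39 (SE 0.11), and ZFP36L1, of the family that destabilises AU-rich mRNAs, by 0.30 (SE 0.16), which was 0.12 when the second shDBC1 array was dropped and 0.48 when the first was. Among cyclic AMP-responsive genes downstream of EP2 and EP4, 5 of 10 were below zero (median -0.01), with the phosphodiesterase genes PDE4B at -0.55 (SE 0.10) and PDE4D at -0.16 (SE 0.10), and the phosphatase gene DUSP1 at 0.59 (SE 0.23), which was 0.31 when the second shDBC1 array was dropped and 0.86 when the first was. PDE4B read 7.77 and 7.74 in shNS and 7.21 and 7.20 in shDBC1, so its readings within a line were close together. Both shDBC1 readings lay below both shNS readings, as for 13.2% of all genes tested. PDE4B was named for the smallest p of its list in the same comparison, which favours such closeness and separation.

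**Figure D3:**
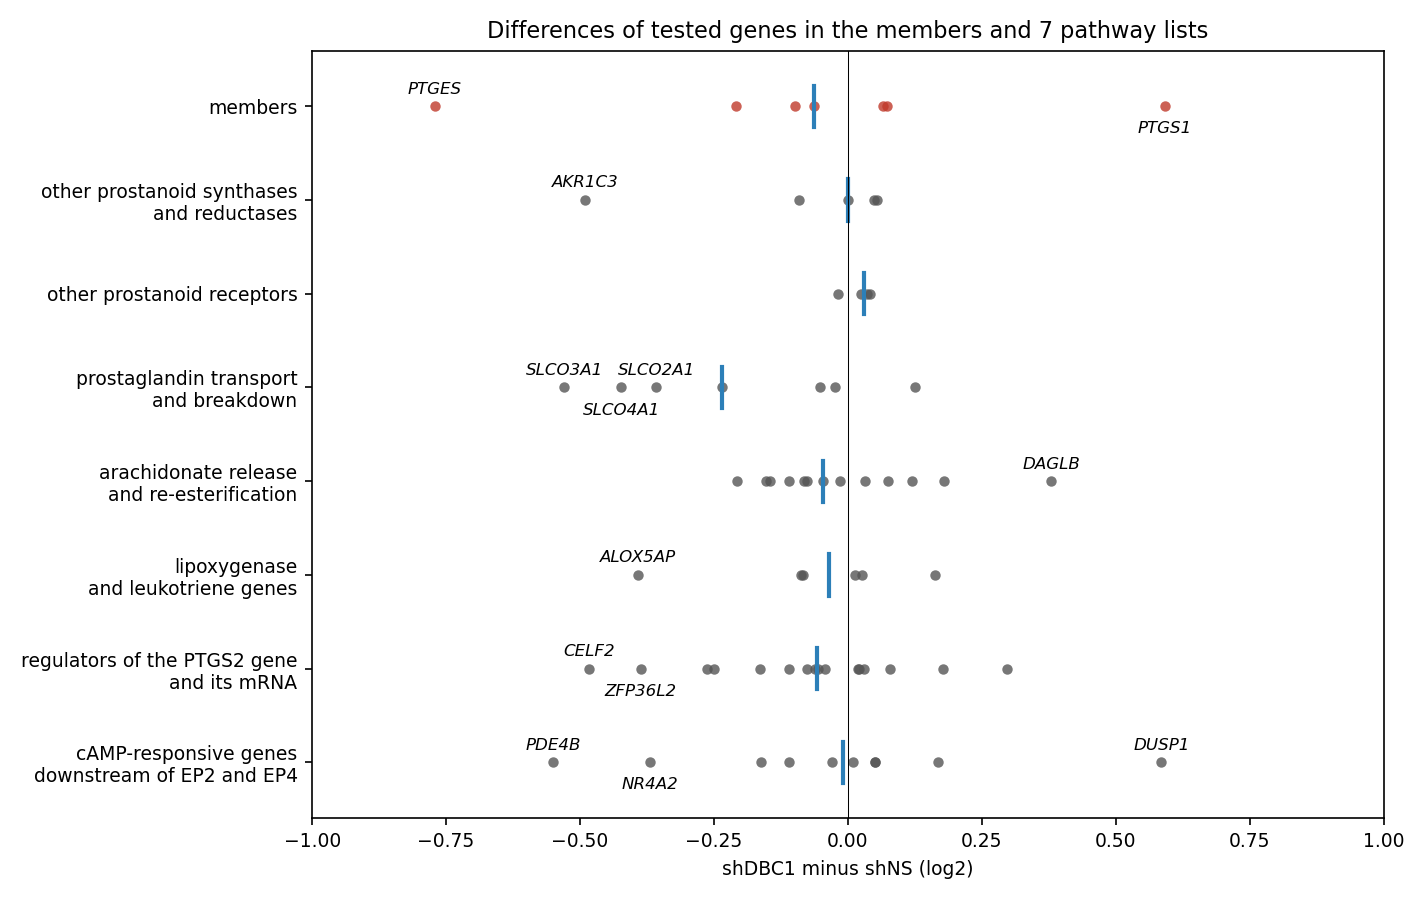
Log2 difference between shDBC1 and shNS (horizontal axis) of each tested gene (points) in the prostaglandin genes (red) and 7 pathway lists (grey), with the median of each list as a blue bar; genes beyond 0.35 either way are named. PTGES at -0.77 and PTGS1 at 0.59 lie at the ends of the range, and the transport and breakdown list has the lowest median, -0.23.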

How the data were processed

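MDA-MB-231 cells were measured on 4 arrays, 2 per group, with groups and replicate numbers taken from the sample titles. The deposited values are log2 intensities, which the authors made with GCOS and RMA, per the submitters' processing notes. Their versions, filters and genome build are not given in the sources used, and the scale was read from the range of values (2.52 to 14.1). RMA compresses differences of dim genes and hides a shift shared by all genes, and the number of arrays limits the precision.

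Of 33297 probe sets, 19460 had 1 symbol in the platform annotation, 1754 several and 12083 none there. By gene ID, 19429 matched the RefSeq table. Each gene was represented by its brightest probe set, and genes below the 25th percentile were not tested. Groups were compared by lmFit and eBayes of limma 3.58.1 (R 4.3.3; two-sided, Benjamini-Hochberg over 13813 genes, threshold 0.05, intervals at 95%). There were 2 residual degrees of freedom and 2.60 from the prior, and the fit was tested on simulated data. Lists were described by counts and medians only. Genes outside the 10 were named by rule: CCAR2, up to 3 per list by smallest p, and the 5 nearest to PTGS2, plus marker genes. The exceptions are the genes under the other observations, which were chosen after their values were seen. The members and lists were chosen with earlier results of these data known. Alternatives covered filters, normalisations, priors, probe set summaries, a replicate block and left-out arrays.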

Additional observations from a re-analysis of the deposited data

How the results depend on the processing

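With 2 arrays per group, differences under about the size of the printed intervals were not detectable. The count of 0 called genes, and of 0 called prostaglandin genes, was the same under the filters, normalisations, priors, probe set mean and left-out arrays tried. The replicate numbers share only a number in the labels. Across genes, deviations from the group mean correlated at 0.653 between arrays of one number. With a replicate block 113 genes were called, 94 of them lower, and 1 of the 7 tested prostaglandin genes, PTGES (limma adjusted p 0.0275, SE 0.10), together with CCAR2 (0.0232). PTGS1 had an adjusted p of 0.0776 with that block, and no other named gene was called. With no filter, 3 of 10 prostaglandin genes had groups that did not overlap (24.3% of all genes), and 6 were lower within both pairs (25.6%), as 3 more genes were counted. With the 50th percentile filter 3 of 5 separated the array numbers (57.3% of all genes), as 2 fewer were counted. Leaving out 1 array gave 3 to 5 of 7 with groups that did not overlap, against 59.3% to 64.2% of all genes, and 5 to 7 with numbers that did not, against 72.0% to 80.4%. Of 34 named genes with a fitted value, 15 changed sign when some array was dropped, a step that leaves the numbers unbalanced. Their ranges were -0.041 to 1.22 for PTGS1, -0.72 to 0.59 for PTGS2, -0.059 to 0.19 for PTGES2, -0.20 to 0.0010 for PTGES3, -0.37 to 0.52 for PTGER2, -1.19 to 0.21 for AKR1C3, -0.039 to 0.15 for TBXAS1, -0.013 to 0.095 for TBXA2R, -0.066 to 0.12 for PTGIR and -0.22 to 0.29 for PTGER1. For the genes nearest to PTGS2 they were -0.63 to 0.66 for SMIM14, -0.70 to 0.54 for CDH1, -0.63 to 0.69 for HBP1, -0.62 to 0.74 for IFITM1 and -0.62 to 0.75 for ST3GAL5. Median centring gave -0.0054 for SMIM14, and no other named gene turned direction under a filter, normalisation, prior or probe set summary.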

Other observations

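Other genes of arachidonate metabolism also separated the array numbers, as 53.1% of all genes tested did in either direction. The 4 genes given here were chosen after their values were seen. ALOX5, the 5-lipoxygenase gene, read 9.08 and 9.85 in shNS and 8.96 and 9.80 in shDBC1. LTA4H, which makes leukotriene B4, read 11.01 and 11.47 in shNS and 11.06 and 11.44 in shDBC1. PTGR1, a reductase that inactivates leukotrienes and prostaglandins, read 9.45 and 10.07 in shNS and 9.35 and 10.07 in shDBC1. The prostaglandin importer gene SLCO2A1 read 6.86 and 7.94 in shNS and 6.85 and 7.23 in shDBC1. In each of these 4 genes both readings numbered 2 were the higher ones. Of the transport and breakdown list 3 of 7 tested genes were higher on both arrays numbered 2 and 1 was lower. Of the lipoxygenase list 2 of 6 were higher and 0 lower, and of the arachidonate release list 5 of 13 and 2. Among the other synthases and reductases 3 of 5 were higher and 2 lower, and among the other receptors 0 of 4 and 2. Over all genes tested the shares were 25.8% and 27.3%.

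Among 16 regulators of PTGS2, 6 were higher and 2 lower on both arrays numbered 2, against 25.8% and 27.3% of all genes tested. The genes of the C/EBP factors were higher, CEBPB by 0.56 and CEBPD by 0.75 averaged over the lines, while NFKB1 was lower by 0.57. ZFP36, whose product promotes decay of AU-rich mRNAs, was higher by 0.68. The regulators named here were chosen after their values were seen. Any part of these genes in the difference of PTGS2 was not tested.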
